A study of Mus musculus with 6 samples.

Results

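The genes described here mark lymphatic endothelium, the lining of the vessels that drain fluid from tissue, and they were followed in lungs of mouse embryos with and without Hopx. The 5 genes Prox1, Lyve1, Flt4, Reln and Mmrn1 form the set, and every probe set annotated to exactly 1 of them was taken. This gave 11 of the 45037 probe sets tested, and 5 of 18193 genes. Whole lungs were microdissected at E16.5, before birth, from 3 Hopx -/- embryos, called Hopx-null here, and 3 Hopx +/+ embryos, called wild-type here, all on a mixed strain background. Each lung was labelled as a biological replicate and measured on 1 array. The sources used here do not give how the null allele was built, or the litter and sex of the embryos. Values are log2 expression values, so a difference of 1 is a doubling of signal. Lymphatic vessels are a small part of whole-lung RNA, and fewer lymphatic cells and less RNA per cell cannot be told apart in such samples.

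Lymphatic endothelial cells arise from veins when the homeobox factor Prox1 is switched on under the control of Sox18 and Nr2f2. They then sprout toward Vegfc, a ligand that the enzyme Adamts3 and its cofactor Ccbe1 activate and that the receptor Flt4 (Vegfr3) reads with its co-receptor Nrp2. In the fetal lung these vessels clear liquid, and their function is needed for inflation at birth. Most members are not unique to lymphatic vessels: Prox1 is also made in liver, heart muscle and neurons, Lyve1 in some macrophages, Reln in neurons and Mmrn1 in platelets.

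The labels were checked on Hopx, a homeodomain-only protein. At its probe set 1451776_s_at it read 4.59, 4.59 and 4.96 in Hopx-null lungs and 10.96, 10.59 and 10.41 in wild-type lungs. Its 2 probe sets were the only ones past an adjusted p of 0.05 (limma with Benjamini-Hochberg adjustment), 0.00444% of all tested. The second, 1428662_a_at, kept signal in Hopx-null lungs, with 10.64, 10.35 and 10.47 against 12.50, 12.44 and 12.26 in wild-type lungs, or 0.27-fold. The arrays were alike, with correlations between 0.989 and 0.995. Lung epithelial markers gave mean log2 values between 11.27 and 11.35 in the 6 lungs, above the upper quartile of all values (9.03). The Y-linked gene Eif2s3y was at 11.72 and 11.56 in 2 of the wild-type lungs, replicates 2 and 3, and at most at 3.13 elsewhere. Its difference was -5.85, that of the Y-linked Kdm5d -4.38 and that of Xist, made from the inactive X chromosome, 4.44. Xist was high in every lung without Y-linked signal, from 12.22 to 12.68, and low in the lungs with it, at 6.43 and 5.84. By these signals the lungs with Y-linked signal were male and all the others female. Differences between genotypes can therefore include differences of sex, and only wild-type replicate 1 matches the Hopx-null lungs in sex.

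The lymphatic genes did not differ detectably between genotypes. None of the 11 member probe sets passed the threshold (limma with Benjamini-Hochberg adjustment, adjusted p between 0.878 and 0.991), none had an unadjusted limma p under 0.05 (as 4.77% of all probe sets had), and at none were the groups free of overlap. Groups did not overlap at 10.1% of all probe sets. Taking for each gene the probe set with the highest mean, 1 member was higher and 4 were lower in Hopx-null lungs, with a median log2 difference of -0.10. These became 3 higher and 2 lower, with a median of 0.065, without wild-type replicate 3. Over all genes the median difference was 0.01, with 9504 higher and 8689 lower. The median size of the difference, whatever its direction, was 0.10 among the members and 0.10 over all genes. No exact two-sided permutation test of 3 lungs against 3 can give a p below 0.1, and the members' exact p-values ran from 0.2 to 1.0.

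Not every probe set read a signal. At 7 of the 11 probe sets all 6 lungs were above the lower quartile of the arrays (4.28), where signal nears background. The other 4, which are 1457432_at and 1421336_at of Prox1, 1458020_at of Reln and 1430621_at of Mmrn1, were below it in all 6 lungs and are not read as levels. Their differences lay between 0.01 and 0.27, all 4 toward higher values in Hopx-null lungs.

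**Figure D1:**
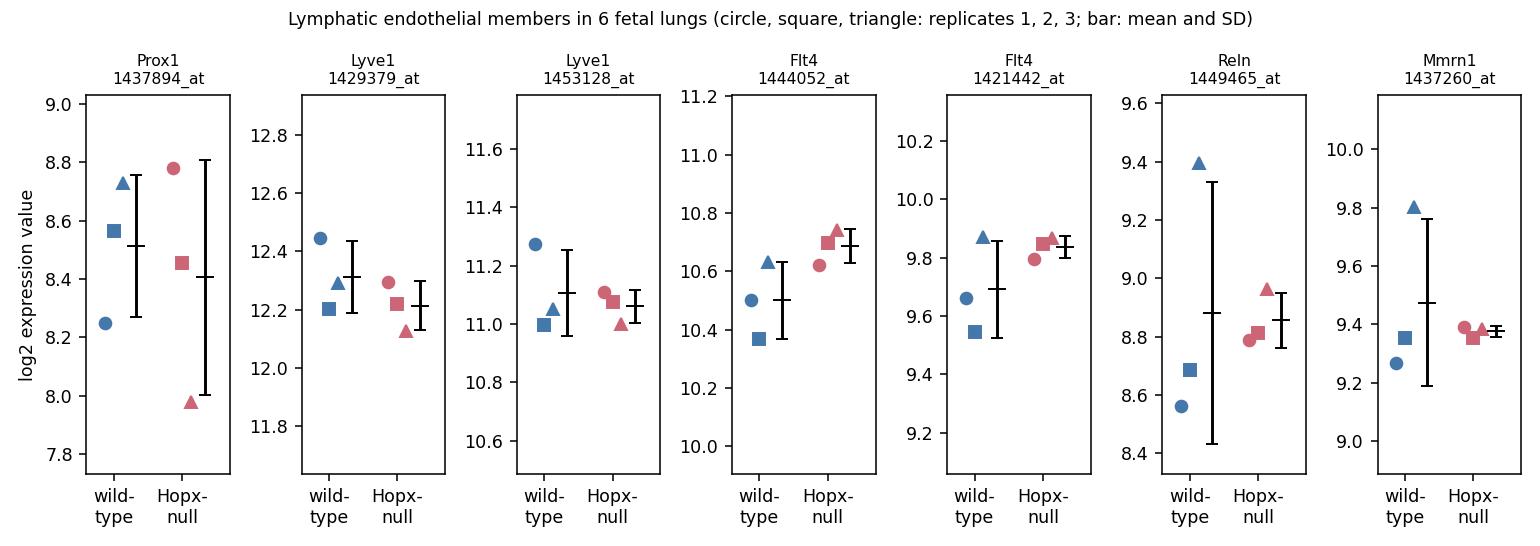
Log2 expression values (vertical axes, each spanning the same range) of the 7 member probe sets above the lower quartile, in wild-type (blue) and Hopx-null (red) lungs. Points are lungs, and black bars give the mean and SD of 3. The groups overlap in every panel, and wild-type replicate 3 stands highest for Reln (9.39) and Mmrn1 (9.80).

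Prox1, the factor that sets lymphatic fate, varied among lungs of the same genotype. At 1437894_at, its probe set above background, the log2 values, in replicate order, were 8.78, 8.46 and 7.98 for Hopx-null lungs and 8.25, 8.56 and 8.73 for wild-type lungs. The highest and the lowest lung were thus both Hopx-null. The means were 8.41 ± 0.40 (SD, n = 3) and 8.51 ± 0.24 (SD, n = 3), a log2 difference of -0.11 (95% interval -0.64 to 0.42). Without wild-type replicate 3 the difference was -0.0007, and without Hopx-null replicate 3 it was 0.11, in the other direction. The latter lung also had the largest excess of 3' over 5' control signal, 1.51 for actin and 1.72 for Gapdh on the log2 scale, against at most 1.25 and 1.60 in the others. The part of this excess in its Prox1 value was not tested.

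Lyve1 is a receptor for hyaluronan on the surface of lymphatic cells. Among the members' probe sets with the highest mean, that of Lyve1 had the narrowest range over the 6 lungs. At 1429379_at it read 12.30, 12.22 and 12.13 in Hopx-null and 12.44, 12.20 and 12.29 in wild-type lungs. All 6 values lay within 0.32, and the log2 difference was -0.10 (95% interval -0.34 to 0.14), or 0.93-fold (95% interval 0.79 to 1.10). The other probe set, 1453128_at, gave -0.04 (95% interval -0.29 to 0.20). At both, wild-type replicate 1 was the highest lung.

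Flt4, the receptor for Vegfc, had the largest difference among the probe sets above background. At 1444052_at it read 10.62, 10.70 and 10.74 in Hopx-null and 10.50, 10.37 and 10.63 in wild-type lungs. Only wild-type replicate 3 reached the Hopx-null range. The means were 10.69 ± 0.06 (SD, n = 3) and 10.50 ± 0.13 (SD, n = 3), a difference of 0.19 (95% interval -0.05 to 0.42; limma with Benjamini-Hochberg adjustment, adjusted p = 0.878) or 1.14-fold (95% interval 0.97 to 1.34). Its other probe set, 1421442_at, read 9.80, 9.85 and 9.87 in Hopx-null and 9.66, 9.54 and 9.87 in wild-type lungs. The groups again overlapped through wild-type replicate 3 alone, with a difference of 0.14 (95% interval -0.11 to 0.40). Both probe sets measure the same RNA samples and are not independent support for each other. Leaving out wild-type replicate 3, the highest wild-type lung at both, necessarily raised the differences. They were then 0.25 (unadjusted 95% interval 0.0036 to 0.50) and 0.23 (unadjusted 95% interval -0.0023 to 0.47). The adjusted p was 0.999 at both (limma with Benjamini-Hochberg adjustment). Leaving out wild-type replicate 2, the lowest, gave 0.12 and 0.07. Flt4 stayed short of the threshold in every alternative run.

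Reln encodes reelin, a secreted glycoprotein that lymphatic endothelial cells release. At 1449465_at it read 8.79, 8.81 and 8.96 in Hopx-null and 8.56, 8.68 and 9.39 in wild-type lungs. The Hopx-null lungs lay inside the wild-type range. The difference was -0.02 (95% interval -0.54 to 0.50). Without wild-type replicate 3 it was 0.23 (95% interval -0.03 to 0.50), and without Hopx-null replicate 1 it was 0.01. Reln and Hopx share chromosome 5, with 341 protein-coding genes between them in the RefSeq order of assembly GRCm38.p6.

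Mmrn1 encodes multimerin 1, a carrier protein of the emilin family stored in platelets and endothelium. At 1437260_at it read 9.39, 9.35 and 9.38 in Hopx-null and 9.27, 9.35 and 9.80 in wild-type lungs. The Hopx-null lungs were nearly identical (SD 0.02), and the wild-type spread (SD 0.29) came from replicate 3. The difference was -0.10 (95% interval -0.45 to 0.26), and 0.07 without wild-type replicate 3.

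**Figure D2:**
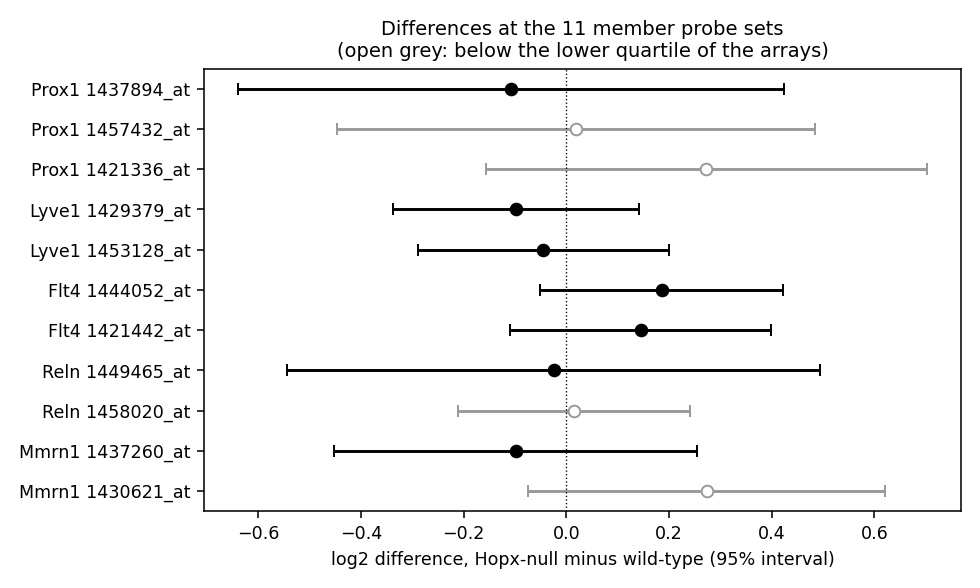
Log2 difference of Hopx-null minus wild-type (horizontal axis) at each of the 11 member probe sets, with limma's 95% interval. Filled black points are probe sets above the lower quartile, open grey points those below it. Every interval spans 0, and among the filled points those of Lyve1 and Flt4 are narrower than those of Prox1 and Reln.

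The members did not vary as a block across the 6 lungs. Of the 10 pairs of members, Reln and Mmrn1 were the most alike (Pearson r = 0.951 with an exact permutation p of 0.00972, and Spearman rho = 0.829 with an exact permutation p of 0.0583). Adjusted over the 10 pairs by Benjamini-Hochberg, these exact permutation p-values were 0.0972 and 0.515. Without the 2 lungs farthest from the Reln median, wild-type replicates 3 and 1, r was lower, at 0.562. For this pair the r of deviations from the genotype means was 0.979. Without wild-type replicate 3 alone r was 0.831 over the raw values. Within the 3 Hopx-null lungs, where Mmrn1 hardly varied (SD 0.02), r was 0.197. Within the 3 wild-type lungs it was 1.0 after rounding. For the other 9 pairs r ranged from -0.343 for Lyve1 and Flt4 to 0.484 for Flt4 and Reln, with exact permutation p-values of 0.324 or more. Without the 2 lungs farthest from the first gene's median, these 2 pairs changed sign, to 0.498 and -0.254. Deviations of Flt4 from its genotype means correlated at 0.773 with those of Reln and at 0.702 with those of Mmrn1. For the remaining pairs the r of deviations ran from -0.346 (Lyve1 and Reln) to 0.442 (Prox1 and Mmrn1). The r of deviations was not tested.

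The sequences upstream of Reln and Mmrn1 are shown because these 2 members varied most alike, and that of Flt4 because it had the largest difference above background. Each is the 250 bases before the RefSeq start (GRCm38.p6), 5′ to 3′ on the gene's strand. RefSeq windows matched 4 of the 5 members. Capitals mark matches on either strand to AACAAT (Sox factors), GGAAG (Ets factors), AGATAA (zinc finger factors such as Gata2), AAACA (Fox factors) and TGACCT (a site of nuclear receptors such as Nr2f2). These are letters in a window, not measured binding.
Reln, chr5:22344706-22344955, minus strand: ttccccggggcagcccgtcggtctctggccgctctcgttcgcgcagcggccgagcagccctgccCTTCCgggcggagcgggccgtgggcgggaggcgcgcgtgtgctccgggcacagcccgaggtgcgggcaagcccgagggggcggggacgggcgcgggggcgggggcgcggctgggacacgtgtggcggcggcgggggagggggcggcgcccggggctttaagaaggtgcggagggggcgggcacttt
Mmrn1, chr6:60944067-60944316, plus strand: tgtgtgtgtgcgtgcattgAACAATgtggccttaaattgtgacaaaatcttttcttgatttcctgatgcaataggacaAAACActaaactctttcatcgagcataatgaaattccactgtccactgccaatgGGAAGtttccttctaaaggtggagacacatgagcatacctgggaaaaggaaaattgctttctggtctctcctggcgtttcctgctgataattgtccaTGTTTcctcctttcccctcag
Flt4, chr11:49609429-49609678, plus strand: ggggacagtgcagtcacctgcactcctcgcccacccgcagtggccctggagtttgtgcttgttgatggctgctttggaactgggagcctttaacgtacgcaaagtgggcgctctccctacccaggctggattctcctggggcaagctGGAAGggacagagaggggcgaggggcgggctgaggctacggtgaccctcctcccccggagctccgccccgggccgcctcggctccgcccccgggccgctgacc
The Reln and Mmrn1 windows differ widely in base composition, 80.0% G and C against 42.4%, with a median of 52.4% over 32851 windows. Each of the 3 windows holds GGAAG 1 time, as do 64.1% of all windows at least once. Mmrn1 alone among them has AACAAT (1 match, present in 9.42% of windows) and AAACA (2 matches, 46.4% of windows). None of the 3 holds AGATAA or TGACCT, found in 9.99% and 14.0% of windows. No matches of different motifs overlapped in these windows.

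The growth signals around Flt4 likewise gave no call. The list called growth signals here held 16 genes. They belong to the Vegfc pathway, other lymphatic growth signals and the platelet signal that keeps lymph and blood vessels apart. Of them, 10 were higher and 6 lower in Hopx-null lungs, with a median log2 difference of 0.06, and 0 passed limma's threshold. Taking for each gene the probe set with the highest mean, the groups did not overlap at 2 of the 16, Lcp2 and Plcg2. Both were higher in Hopx-null lungs. Over all genes, Hopx-null lungs were higher without overlap at 6.21% and lower without overlap at 4.31%. Plcg2, a phospholipase of the platelet signal that keeps lymph and blood vessels apart, read 7.38, 7.55 and 7.78 in Hopx-null and 7.24, 7.22 and 7.18 in wild-type lungs. Its difference was 0.36 (95% interval 0.08 to 0.64; limma with Benjamini-Hochberg adjustment, adjusted p = 0.878).

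The ligands and their activators each had their highest or lowest value in wild-type replicate 3. Vegfc differed by 0.10 (95% interval -0.46 to 0.66) and was lowest in wild-type replicate 3, at 10.27 against 10.80 to 11.22 elsewhere. Vegfd, the related ligand, differed by -0.15 (95% interval -0.52 to 0.22) and was highest in that lung, at 11.51 against 10.93 to 11.11. Ccbe1 differed by -0.20 and Adamts3 by -0.29, and Adm, which encodes the peptide adrenomedullin that promotes lymphatic growth, by -0.56. All 3 of these were highest in wild-type replicate 3, at 10.37, 9.20 and 11.69. Ccbe1 also varied among the other lungs, from 8.58 to 9.82. Without wild-type replicate 3 the differences were 0.25 for Ccbe1, -0.06 for Adamts3, -0.11 for Adm, -0.16 for Vegfc and 0.02 for Vegfd. The co-receptor Nrp2 differed by 0.18 (95% interval -0.17 to 0.53), and by 0.03 without that lung. Its other 3 probe sets differed by 0.31, 0.41 and 0.41 with all lungs. The receptor Kdr differed by 0.05 (95% interval -0.21 to 0.31), and by 0.03 without wild-type replicate 3.

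Regulators of lymphatic fate and valves gave mostly lower values in Hopx-null lungs, none past the threshold. Of 11 measured, 1 was higher and 10 were lower, with a median of -0.05, 0 calls and overlap between groups at every gene. With wild-type replicate 3 left out, 4 were higher and 7 lower. With the Y-linked gene Eif2s3y as a covariate the list median was 0.06. That fit in effect compares wild-type replicate 1 with the Hopx-null lungs. Nr2f2, which switches on Prox1 with Sox18, was almost level, from 12.18 to 12.26 over the 6 lungs, with a difference of -0.03 (95% interval -0.21 to 0.15). Its other 5 probe sets gave values above 0, from 0.05 to 0.27. Sox18 differed by -0.20 and Gata2, a factor of lymphatic valves, by -0.32 (95% interval -0.74 to 0.10), and without wild-type replicate 3 by -0.05 and -0.18. Foxc2, which shapes lymphatic valves, differed most, by -0.64 (95% interval -1.50 to 0.23). It read 7.03, 7.09 and 7.34 in Hopx-null and 6.94, 7.97 and 8.46 in wild-type lungs, and the difference was -0.30 without wild-type replicate 3. The wild-type lungs with high Foxc2, replicates 2 and 3, are those with Y-linked signal. They also had the highest cartilage means, 7.88 and 8.20 against 5.50 to 6.66 over 10 cartilage genes, and the part of either in the Foxc2 value was not tested.

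**Figure D3:**
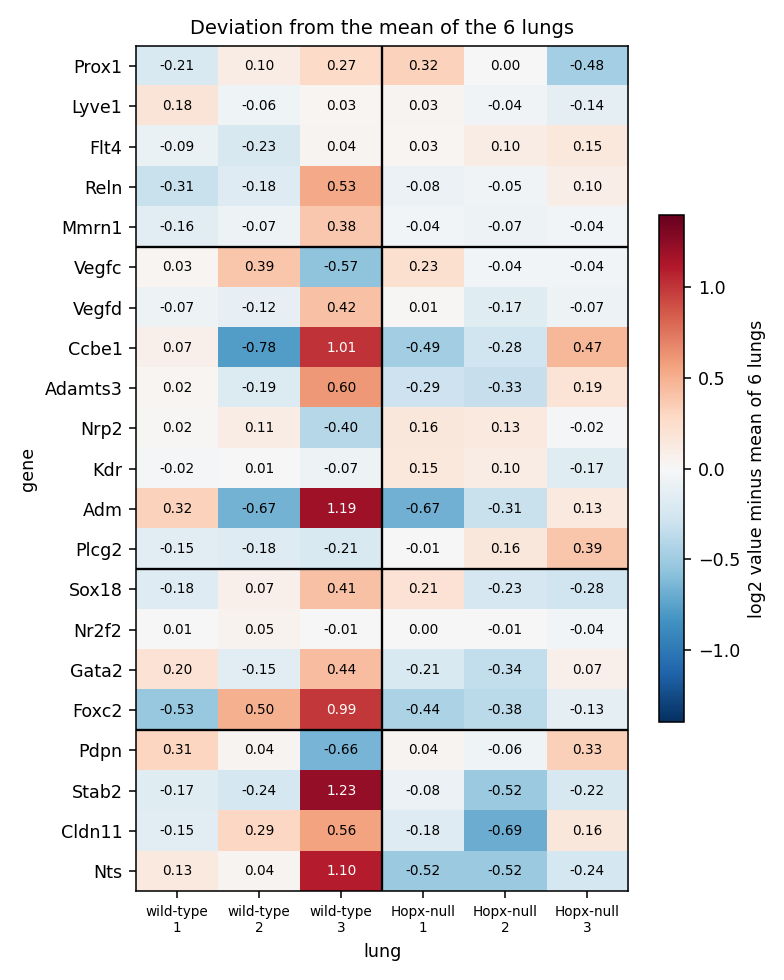
Each cell gives a gene's log2 value in 1 lung minus its mean over the 6 lungs, from blue (lower) to red (higher), for the 5 members (top block), growth signals, regulators and other lymphatic genes. Columns are lungs, wild-type left and Hopx-null right. The column of wild-type replicate 3 holds the largest deviations, 1.23 for Stab2 and 1.19 for Adm.

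Other genes described in lymphatic vessels were evenly divided, 9 higher and 11 lower of 20 measured, with a median of -0.02 and 0 calls. The groups did not overlap at Gng11, a G protein subunit, higher by 0.23, nor at Nts, which encodes the peptide neurotensin. Of all genes, 6.21% were higher and 4.31% lower without overlap. Nts read 6.91, 6.91 and 7.19 in Hopx-null and 7.56, 7.47 and 8.53 in wild-type lungs, a difference of -0.85 (95% interval -1.52 to -0.18; limma with Benjamini-Hochberg adjustment, adjusted p = 0.878) that was -0.51 without wild-type replicate 3. Stab2, a scavenger receptor for hyaluronan, differed by -0.54. It read 7.52 in wild-type replicate 3 and 5.77 to 6.21 in the other lungs, and the difference was -0.07 without that lung. Cldn11, a claudin of lymphatic valves, differed by -0.47, or -0.31 without it. Pdpn, the surface protein podoplanin that type I alveolar cells also carry, differed by 0.21 and was lowest in wild-type replicate 3 (11.69), without which it differed by -0.07. Without that lung the list divided into 12 higher and 8 lower.

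Wild-type replicate 3 was the highest lung at 2 of 5 members, 5 of 16 growth signals, 5 of 11 regulators and 6 of 20 other lymphatic genes. It was the lowest lung at 0 of 5 members, 7 of 16 growth signals, 0 of 11 regulators and 5 of 20 other lymphatic genes. Over all genes it was highest at 21.3% and lowest at 24.0%. Hopx-null replicate 3 was highest at 22.7% and lowest at 19.1% of all genes. Wild-type replicate 3 was highest at 6 and lowest at 3 of 15 macrophage markers, and highest at 2 and lowest at 1 of 10 platelet markers. Among 18 markers of all or blood endothelium it was highest at 5 and lowest at 7.

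The mean of 18 markers of all or blood endothelium varied little between lungs, from 10.90 to 11.01 in the 6 lungs. Single markers varied more, by 0.20 for Egfl7 and 0.73 for Mmrn2 between the highest and the lowest lung. In Hopx-null lungs 11 of the 18 were higher than in wild-type lungs and 7 lower, with a median of 0.05 and 0 calls. The groups did not overlap at 3 genes, Cldn5, Egfl7 and Erg, all higher in Hopx-null lungs. Of all genes, 6.21% were higher without overlap. Cldn5, the claudin of endothelial tight junctions, differed by 0.31 (95% interval 0.08 to 0.55), Plvap, of the diaphragms of fenestrated vessels, by 0.31 and Mmrn2, a relative of Mmrn1, by 0.26. Without wild-type replicate 3 these were 0.24, 0.18 and 0.10, and 14 of the 18 genes were higher. With each array centred on this endothelial mean, a setting chosen after seeing the data, the members' median was -0.15, Flt4 differed by 0.13 and Lyve1 by -0.15, and 0 member probe sets passed.

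Tissues that make members outside lymphatic vessels also gave no call, and their part in the members' values was not tested. Macrophage markers had means of 8.67, 8.53 and 8.88 in Hopx-null and 8.75, 8.67 and 8.86 in wild-type lungs, with 6 of 15 higher. The complement genes C1qc and C1qa differed by -0.38 and -0.30, and F13a1 by -0.36, which was -0.12 without wild-type replicate 3. Platelet markers had means from 7.19 to 7.53, with 2 of 10 higher and Gp9 at -0.21, Treml1 at -0.18 and Ppbp at -0.12; without wild-type replicate 3 Treml1 was at -0.10 and Ppbp at 0.02. Neural markers ranged from 5.58 to 6.51, highest in wild-type replicate 3, with 3 of 9 higher and 6 lower in Hopx-null lungs. The glial factor Sox10 differed by -0.65, the receptor Ret by -0.59 and the neurofilament Nefl by -0.56, and without wild-type replicate 3 by -0.32, -0.31 and -0.29. Nefl was below the lower quartile of the arrays (4.28), where signal nears background, in 2 lungs. Some other neural markers were also below it in part of the lungs. Ret, like C1qc among the macrophage markers, was lower without overlap between groups, as 4.31% of all genes were. Gap43, a protein of growing axons, was higher by 0.42 without overlap between groups (limma with Benjamini-Hochberg adjustment, adjusted p = 0.878), and Stmn2 by 0.18, or 0.01 without that lung. Without it 5 of the 9 neural markers were higher and 4 lower. Heart muscle markers ranged from 9.20 to 10.06, 8 of 10 were higher in Hopx-null lungs, and differences were 0.73 for the myosin Myh7, 0.63 for Myl2 and -0.67 for Nppa. Myh7, like Gap43, was higher without overlap between groups, as 6.21% of all genes were. Nppa, an atrial hormone, read 9.47 in wild-type replicate 3 and at most 6.78 elsewhere. Without that lung Myh7 differed by 0.38 and Nppa by 0.56, and all 10 heart genes were higher. Liver markers ranged from 5.28 to 5.56, with 4 higher and 5 lower of 9 and a median of -0.01. Apoa2 was at 0.50, Ahsg at -0.19 and Fgg at -0.19 (-0.09 without wild-type replicate 3), and their defining gene Alb was at 4.80 to 6.09, below the median of all values (6.69).

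**Figure D4:**
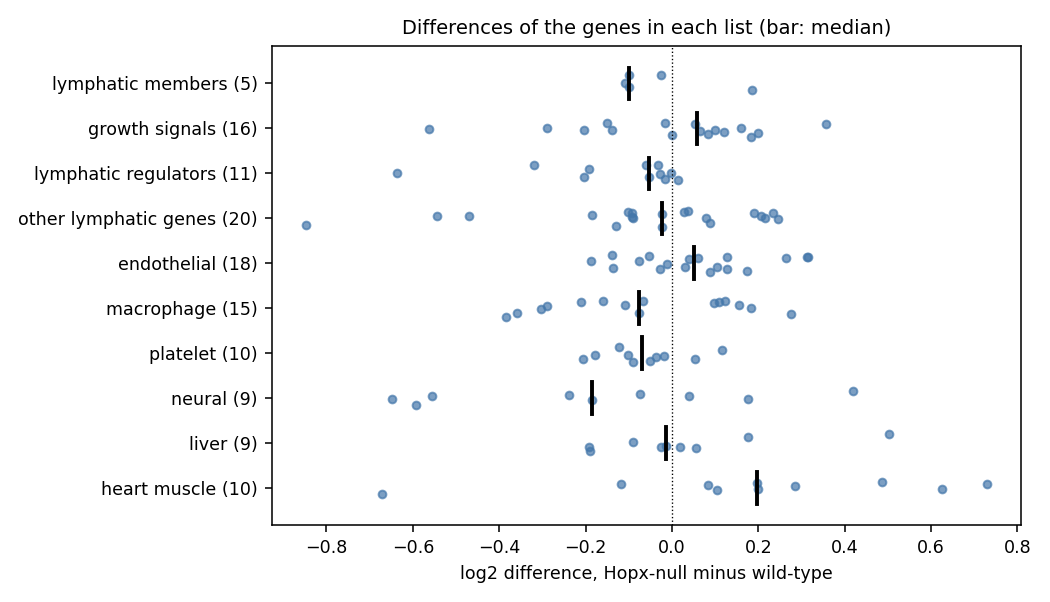
Log2 difference of Hopx-null minus wild-type (horizontal axis) for each measured gene (points) of the lymphatic lists and of tissues that share members, with the list median as a black bar and the number of genes in brackets. Medians of the 4 lymphatic lists lie between -0.10 and 0.06, close to the median of 0.01 over all genes.

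Genes whose pattern over the 6 lungs was most like each member were ranked by Pearson r among 11057 genes above the median level. With 6 lungs many genes reach a high r, and the ranking is a description. For Prox1 they were Glipr1 (r = 0.992), Pdik1l (0.986) and the Notch feedback gene Nrarp (0.985). For Lyve1 they were Rbak (0.983), the calcium pump Atp2b1 (0.981) and the histocompatibility gene H2-D1 (0.966), with 6 genes above 0.95 in all. For Flt4 they were Zfp1 (0.981), the T-box factor Tbx3 (0.980) and Dgke (0.974). For Reln they were Arhgap10 (0.993), the cytokine Clcf1 (0.990) and Jade1 (0.990), with 51 genes above 0.95. For Mmrn1 they were Poldip3 (0.989) and the mitosis genes Mki67 (0.986) and Nusap1 (0.985), with 48 above 0.95. Nusap1 read 9.40 in wild-type replicate 3 and 8.01 to 8.28 in the other lungs, the same lung that was highest for Mmrn1.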

How the data were processed

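The deposited table holds 1 value per probe set and lung, read as log2 expression values. The submitters' processing notes list RMA and Partek 6.6 without saying what each did; the base of the logarithm was inferred from the range of the deposited values. RNA was primed from poly(A) tails, per the labels' protocols. The sources used here do not give background options or filters. Array-wide equalisation hides a shift common to most genes.

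Of 45101 probe sets, 64 controls were left out. The platform annotation gave 1 gene for 34945 of the rest, several for 932 and none for 9160, and only the first kind was named. Groups were compared over all probe sets with limma 3.58.1 in R 4.3.3 (lmFit, eBayes, Benjamini-Hochberg). Lists were described by counts and medians, each gene by its probe set with the highest mean. Permutation tests used scipy 1.17.1. The limma step was tested on simulated data. Precision is limited by the number of arrays, and p-values measure only the spread between these lungs.

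Members, lists and tests were chosen with earlier results of these data known. Named were Hopx, all members, in each other list the genes that passed or else the 3 with the largest difference, fixed pathway genes (Vegfc, Vegfd, Ccbe1, Nrp2, Kdr, Sox18, Nr2f2, Foxc2, Gata2, Pdpn), and the 3 genes most like each member. Lcp2, Gng11, Egfl7 and Erg, without overlap between groups, Gap43, Stmn2 and Alb were named after their values were seen. Ccl21a, on the fixed list, had no probe set of its own. In the cartilage, lung epithelium and lung mesenchyme lists the 3 largest were Acan, Col9a3 and Col9a1 (-1.71, -1.66, -1.56), Nkx2-1, Aqp5 and Ager (-0.23, 0.18, 0.14), and Wnt2, Pdgfra and Tcf21 (0.43, -0.27, -0.21). Without wild-type replicate 3 Col9a3 and Col9a1 were at -0.97 and -0.67, Aqp5 and Ager at 0.07 and 0.05, and the 3 mesenchyme genes at 0.22, -0.14 and -0.32. Alternatives were repeated normalization, filters, variance models, array weights, a replicate block, a Y-linked covariate, another threshold and each lung left out.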

Additional observations from a re-analysis of the deposited data

How the results depend on the processing

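No member probe set passed limma's threshold in any alternative run (adjusted p from 0.485 to 1.0), and 139 of 157 member values kept their direction. That count includes runs that could not change a difference: the filters, the variance model with trend and robust options, and the replicate block. It also includes the probe sets near background. Flt4 kept its direction at both probe sets, from 0.12 to 0.25 at 1444052_at and from 0.07 to 0.23 at 1421442_at. Lyve1 did so at 1429379_at, from -0.24 to -0.03. With Eif2s3y as a covariate Prox1 at 1437894_at gave 0.16, Reln at 1449465_at 0.30 and Mmrn1 at 1437260_at 0.11, the members' median was 0.16 and that of the endothelial list -0.026; since 2 wild-type lungs alone carry Y-linked signal, that fit compares in effect wild-type replicate 1 with the Hopx-null lungs. Array weights gave 0.034 and -0.0068 at Reln 1449465_at and 1458020_at. Centring on array medians gave -0.0025 at Reln 1458020_at. Centring on the endothelial mean, added after seeing the data, gave -0.042 there, -0.038 at Prox1 1457432_at and -0.0062 for the endothelial median. Averaging all probe sets of a gene gave medians of 0.061 for the members, where background probe sets enter, and 0.10 for the endothelial list.

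Leaving out each lung in turn gave -0.30 to 0.11 at Prox1 1437894_at, -0.17 to 0.17 at Prox1 1457432_at, -0.10 to 0.039 at Lyve1 1453128_at, -0.18 to 0.23 at Reln 1449465_at, -0.023 to 0.074 at Reln 1458020_at, -0.20 to 0.065 at Mmrn1 1437260_at, and -0.18 to 0.065 for the members' median. The count of probe sets past the threshold, 2 with all lungs, ranged from 1 to 23: 12 without Hopx-null replicate 1, 23 without wild-type replicate 1 and 1 without each of the others. It was 1 with Eif2s3y as a covariate and 1 with the replicate number as a block. Between same-numbered lungs, deviations from the genotype means correlated at -0.096, -0.121 and 0.183. These values cannot show whether such lungs shared a litter or a day. With 3 lungs of each genotype numbered alike, the block cannot change a member's difference. The cause of the changes in member values and in the count was not tested.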
